A study of Mus musculus with 2 samples.

Results

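Peaks of the histone demethylase KDM4A that stood in the list of 1 library only, and whose reads could mostly not be placed with confidence, made up 587 of the 1910 merged peaks of 3T3-L1 cells. Merged peaks came from joining deposited peaks of either list that shared at least 1 bp. A merged peak on chromosomes 1 to 19 or X was kept when all its peaks came from the same list and when fewer than 50% of its reads, both libraries summed, had a mapping quality of 30 or more. The siCTL list gave 345 such peaks of its 760 peaks not overlapped by the other list, and the siGPS2 list gave 242 of 497. They are called repeat-placed here because a low mapping quality marks reads that match several places of the genome, and no repeat annotation was used to check which repeats they hold. The mm8 sequence under the peaks was not used here either, so no sequence is printed.

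3T3-L1 is a mouse line of fat cell precursors that can be turned into adipocytes in culture, and the cells had been induced to differentiate, per the labels. There were 2 groups with 1 library each, both from the same line and both precipitated with the Abcam antibody ab47984, which the labels spell anti-KMD4A. siCTL cells received a control siRNA and siGPS2 cells received siRNAs against GPS2. Neither an input library nor a replicate was used here. Differences therefore come without a replicate check or a p-value, and an effect of the siRNA cannot be told apart from any other difference between the preparations. After 1 read was kept per position and strand, siCTL had 6559860 distinct reads and siGPS2 had 4940261.

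KDM4A is an enzyme that takes methyl groups off histone H3, among them those of the heterochromatin mark that covers much of the repeated part of the genome. GPS2 belongs to the NCoR/SMRT complex, which represses transcription. Repeated sequence is hard to read in chromatin immunoprecipitation: an aligner that meets several equal matches puts the read on one of them, so a pile of reads at one copy may stem from any of the copies, and a copy missing from the assembly adds its reads to those that are there. Tandem arrays and gene families with near-identical members are the usual places in the mouse genome.

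Most of the peaks lay well below the limit on mapping quality. In the siCTL list class the median share of reads of quality 30 or more was 14.3% (quartiles 2.44 and 32.1%), and in the siGPS2 list class it was 10.9% (quartiles 0 and 23.7%). No read of that quality was found in 84 of the 345 and 74 of the 242. Reads of quality 0 or 1, the lowest values in the files, made up 75.6% of the siCTL reads in the siCTL list class and 80.5% of the siGPS2 reads in the siGPS2 list class. Merged peaks of both lists that met the same quality limit, 510 in number, had 67.1% such reads in siCTL and more reads of quality 2 to 29, 19.8% against 8.32% in the siCTL list class. These shares follow from how the classes were chosen and are given as a description.

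Just inside it, a siCTL list peak on chromosome 17 at 3033384 to 3035383 had 49.1% of its reads at quality 30 or more, with 64 siCTL and 44 siGPS2 reads in all, and one on chromosome 5 at 80490438 to 80493341 had 48.9%. Just outside, peaks on chromosome 16 at 3161718 and chromosome 17 at 34928864 stood at 50%. In the siGPS2 list the nearest inside were on chromosome 12 at 116062081 (49.1%) and at 87084847 (47.4%), and the nearest outside were on chromosome 4 at 61057023 and chromosome 10 at 43921427, both at 50%.

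Most peaks rested on few reads. A peak of the siCTL list class held a median of 14 siCTL and 9 siGPS2 distinct reads, and the total over both libraries ran from 5 on chromosome 10 at 47060663 to 201 on chromosome 8 at 19852755. A peak of the siGPS2 list class held a median of 15 siCTL and 13 siGPS2 reads, with totals from 7 on chromosome 2 at 56986877 to 371 on chromosome X at 165343807. Every one of the 587 had at least 2 reads in each library, so none was empty in the library whose list lacked it. Repeat-placed peaks of both lists were fuller, with medians of 25 siCTL and 20 siGPS2 reads and a highest total of 4317. Counted by line in the deposited lists, whose ordering rule no source used here states, the siCTL class had a median place 62.3% of the way down and the siGPS2 class 61.0%, against 24.4% for repeat-placed peaks of both lists. Uniquely placed peaks of 1 list lay further down still, at 76.8% and 79.3%. A merged peak took the place of its earliest deposited peak. The 510 shared peaks joined 1403 deposited peaks, against 363 for the 345 and 253 for the 242. Their earlier place therefore follows in part from the joining.

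**Figure D1:**
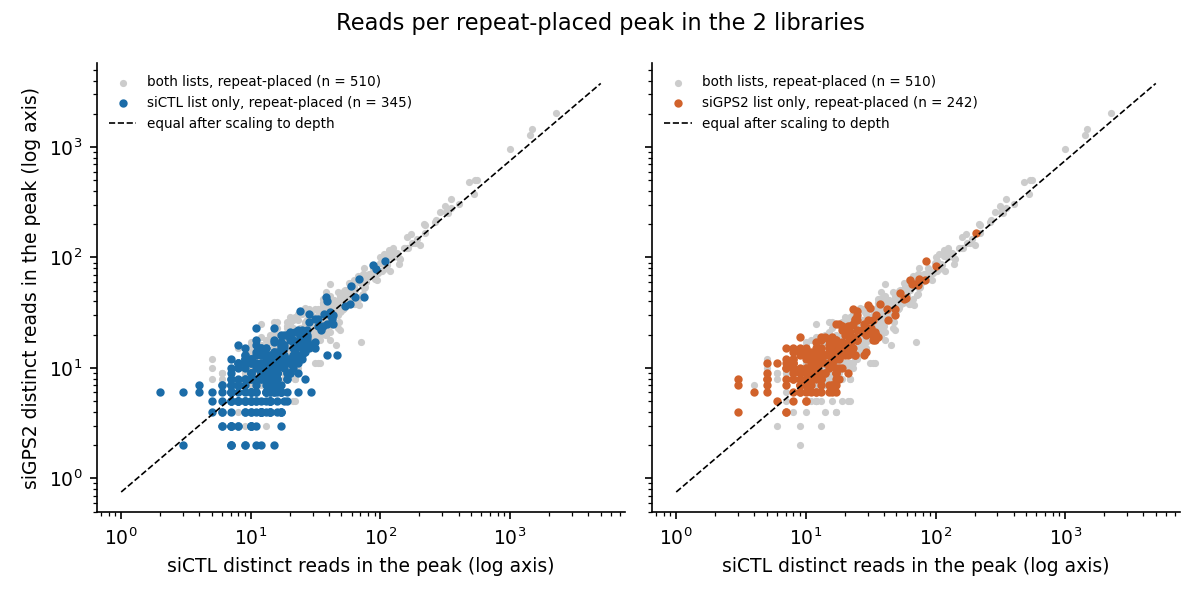
Distinct reads per repeat-placed peak, siCTL on the x axis and siGPS2 on the y axis, both log axes, 1 point per merged peak, with the 345 peaks of the siCTL list only in blue (left panel), the 242 of the siGPS2 list only in orange (right panel) and the 510 of both lists in grey in each panel; the dashed line marks equal density after scaling to depth. Both single-list classes lie along the line and at the low end of the range of the shared peaks.

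The fullest peaks held many reads in both libraries although each stood in a single list. The peak on chromosome 8 at 19852755 to 19855793, of the siCTL list, had 109 siCTL and 92 siGPS2 reads, a depth-scaled ratio siGPS2 over siCTL of 1.12 (95% exact conditional interval 0.840 to 1.49). Its neighbour at 19859399 to 19861398, place 131 of the siCTL list, had 88 and 86 reads, with a ratio of 1.30 (0.953 to 1.77). Both thus leaned to the library whose list lacked them, with intervals that reached 1. On chromosome 5, peaks at 15012578 and 15202843 had 93 against 78 reads and 74 against 44, with ratios of 1.11 (0.814 to 1.52) and 0.790 (0.531 to 1.16). The peak on chromosome 6 at 47681530 had 68 against 64 reads (1.25, 0.874 to 1.78), none of quality 30 or more. Intervals cover counting error only and compare these libraries, and without molecular identifiers a read need not be an independent molecule.

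In the siGPS2 list class the fullest was also the first in the list, at place 47: chromosome X at 165343807 to 165345806, with 206 siCTL and 165 siGPS2 reads, a ratio of 1.06 (0.861 to 1.31). Within 150 bp of its centre stood 58 siCTL and 45 siGPS2 reads, and its surroundings 2000 to 10000 bp away held 22.8 times the mean read density of the chromosomes. A pair of peaks on chromosome 8, at 56611712 and 56621130 and at places 110 and 107, had 100 against 83 reads (1.10, 0.814 to 1.49) and 85 against 92 (1.44, 1.06 to 1.95). The second of the pair was the only one of the 5 fullest in this class whose interval lay above 1, and it did not reach a fold of 1.5. The others were on chromosome 6 at 47672831, with 83 against 63 reads (1.01, 0.715 to 1.42), and on chromosome 8 at 20338282, with 75 against 64 (1.13, 0.799 to 1.60).

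Summed over the siCTL list class, 5819 siCTL and 4108 siGPS2 reads gave a ratio of 0.937 (0.900 to 0.976), and over the siGPS2 list class 4741 and 4100 reads gave 1.15 (1.10 to 1.20). The median log2 ratio, with 1 read added in each library, was −0.11 and 0.21, beside 0.05 over all merged peaks. Without the added read the medians were −0.18 and 0.20, beside 0.03 over 1909 merged peaks with reads in both libraries. Of the 345 peaks, 137 (39.7%) had a ratio above 1, against their list, and of the 242 peaks 81 were at or under 1, since 161 (66.5%) lay above it. Each class was picked by a list called on its own library's reads, so these directions follow from the choice and support nothing. In the surroundings, 2000 to 10000 bp out, the ratios were 1.004 (0.986 to 1.02) for the siCTL class and 1.003 (0.985 to 1.02) for the siGPS2 class, whereas within 150 bp of the centre they were 0.680 (0.631 to 0.732) and 1.59 (1.48 to 1.72). In reads of quality 30 or more alone, 933 siCTL and 762 siGPS2 reads of the siCTL class gave 1.08 (0.984 to 1.19), on the other side of 1, with an interval that includes 1. In the siGPS2 class 600 and 512 such reads gave 1.13 (1.01 to 1.28).

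At least 30 reads over both libraries were found in 102 peaks of the siCTL class and 108 of the siGPS2 class. A peak was called when its ratio was at least 1.5-fold from 1 and its interval excluded 1. Among all 798 merged peaks with that many reads, 1.5% were called lower in siGPS2 and 2.76% higher. In the siCTL class 4 were lower (3.92%, 95% Wilson interval 1.54 to 9.65%) and 3 higher (2.94%, 1.01 to 8.29%). In the siGPS2 class none was lower (0%, 0 to 3.43%) and 3 were higher (2.78%, 0.949 to 7.85%). The rule for the classes used the same contrast, and nothing is read from these counts.

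Among siCTL class peaks with at least 30 reads, the lowest ratio was also that of the first siCTL list peak of the class, at place 126, on chromosome 6 at 132428455 to 132430454. It had 29 siCTL and 6 siGPS2 reads, a ratio of 0.275 (0.0933 to 0.673), and 23 of the siCTL reads but only 3 of the siGPS2 reads lay within 150 bp of the centre. In reads of quality 30 or more it had 4 against 2. The peak on chromosome 5 at 15158238 had 46 against 13 reads (0.375, 0.186 to 0.706), in a neighbourhood 5.72 times denser than the chromosomes. The peak on chromosome 6 at 125841553 had 26 against 8 (0.409, 0.160 to 0.929), and there all reads of the surroundings were of quality 30 or more while 44.1% of those in the peak were. A further peak called lower lay on chromosome 2 at 174604838, with 39 against 13 reads (0.443, 0.217 to 0.847). It is outside the 3 lowest ratios that were to be named and was added after its values were seen.

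All 3 peaks of the siCTL list that were called higher in siGPS2 went against their list. They lay on chromosome 8 at 126467165, with 11 siCTL and 23 siGPS2 reads (2.78, 1.30 to 6.31), on chromosome 14 at 43357321, with 15 and 23 (2.04, 1.02 to 4.20), and on chromosome 8 at 72466685, with 24 and 33 (1.83, 1.05 to 3.23). In the first of them the densest 301 bp held 4 siCTL and 7 siGPS2 reads, and none of its reads had a quality of 30 or more. In the siGPS2 list class, the called peaks were on chromosome X at 3237757, with 23 and 34 reads (1.96, 1.12 to 3.49), on chromosome X at 30528894, with 17 and 25 (1.95, 1.01 to 3.85), and on chromosome 8 at 126502076, with 25 and 33 (1.75, 1.01 to 3.07). The last was likewise named after its values were seen. The next highest ratio with at least 30 reads, on chromosome 7 at 7759299, was 1.94 with an interval that reached 1 (0.909 to 4.28). The lowest in this class with at least 30 reads were on chromosome 14 at 4969921, with 21 against 9 reads (0.569, 0.229 to 1.30), on chromosome 8 at 72496505, with 28 against 13 (0.616, 0.293 to 1.23), and on chromosome 4 at 146291630, with 29 against 14 (0.641, 0.313 to 1.25). None of those intervals excluded 1.

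The library whose list lacked a peak still showed a pile at its centre. In the siCTL class, density within 150 bp of the centre was 3.94 times (3.77 to 4.11) that of the surroundings in siCTL and 2.72 times (2.56 to 2.89) in siGPS2. In the siGPS2 class the siGPS2 value was 3.63 times (3.44 to 3.82) and the siCTL value 2.30 times (2.17 to 2.43). Repeat-placed peaks of both lists stood far higher, at 12.5 times in siCTL and 13.7 times in siGPS2. Those were summed over 1403 deposited peaks, so reads of overlapping peaks counted more than once and the fullest peaks weighed most. Only 25 of the 345 peaks (7.25%) had no siGPS2 read within 150 bp of the centre, and 12 of the 242 (4.96%) had no siCTL read there. The densest 301 bp in the other library were often as full as in the emptier peaks that its own list did hold, and seldom as full as in its median peak. Repeat-placed merged peaks of the siGPS2 list, 752 in number, had a 10th percentile of 4 siGPS2 reads in their densest 301 bp, and 229 of the 345 siCTL class peaks (66.4%, 61.2 to 71.2%) had as many. The lower quartile of that list, 6 reads, was reached by 100 (29.0%) and its median, 8 reads, by 33 (9.57%). In the other direction, 176 of the 242 siGPS2 class peaks (72.7%, 66.8 to 78.0%) reached the 5 siCTL reads that mark the lowest 10% of the 855 repeat-placed merged peaks of the siCTL list, while 134 (55.4%) reached its lower quartile of 6 and 47 (19.4%) its median of 9.

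The densest 301 bp of the libraries lay within 150 bp of each other in 143 of 345 siCTL class peaks (41.4%, 36.4 to 46.7%) and 112 of 242 siGPS2 class peaks (46.3%, 40.1 to 52.6%). In repeat-placed peaks of both lists they did so in 368 of 510 (72.2%, 68.1 to 75.9%), and in uniquely placed peaks in 58.8% of those of both lists, 33.7% of those of the siCTL list only and 34.1% of those of the siGPS2 list only. Shared peaks were chosen for overlapping peak calls and held more reads, with a median total of 45 against 23 and 27, so the gap follows in part from the choice and nothing is read from it.

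**Figure D2:**
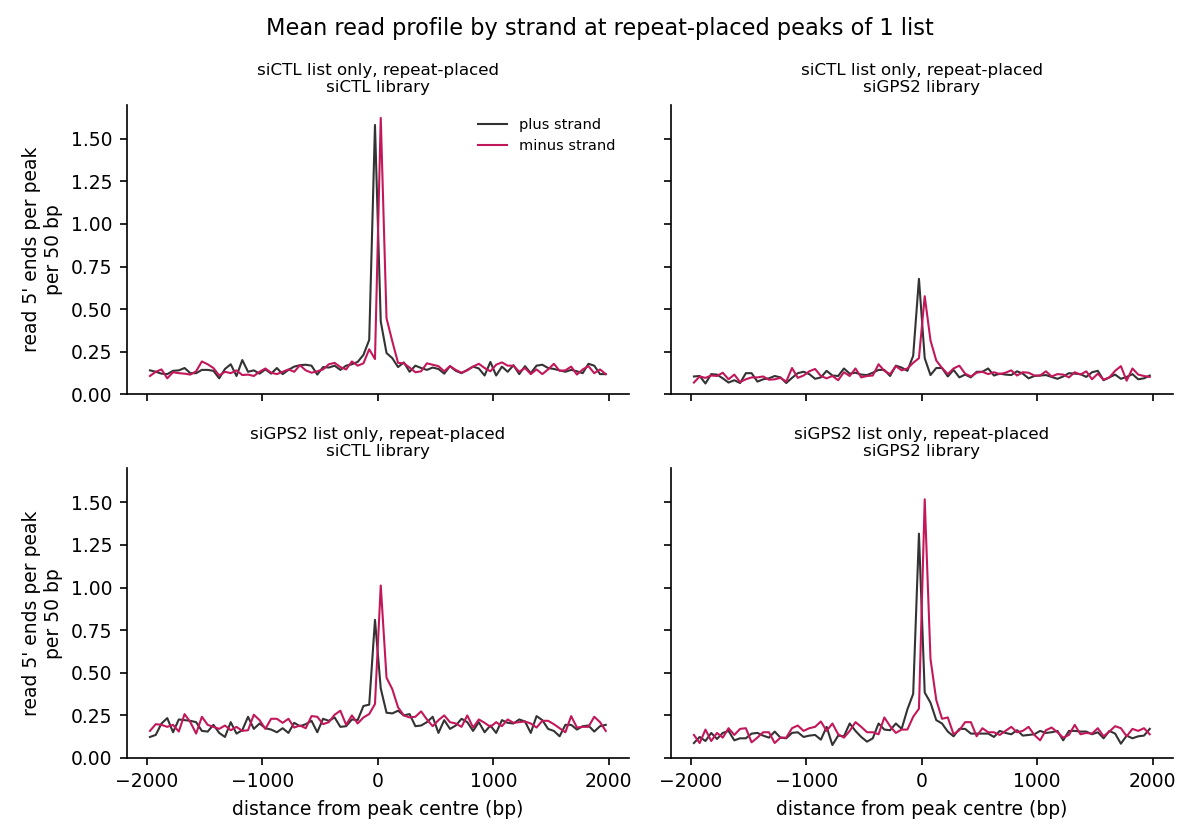
Mean number of read 5 prime ends per peak in 50 bp steps, by distance from the centre of each deposited peak, with the plus strand in black and the minus strand in red. Rows are the 2 classes (siCTL list on top) and columns the libraries (siCTL left). Plus-strand ends peak just left of the centre and minus-strand ends just right of it in all 4 panels, and the pile is higher in the library that the list came from.

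Each centre is that of a peak called on the library of its list, so a pile there in that library follows from the choice. The piles were narrow and had their strands apart by about the length of a read. In the siCTL class, the 50 bp step left of the centre held 1.58 plus-strand siCTL ends per peak and the step right of it 1.62 minus-strand ends, and in siGPS2 the values were 0.678 and 0.576. In the siGPS2 class they were 1.32 and 1.52 in siGPS2 and 0.810 and 1.01 in siCTL. Within 250 bp of the centre, 67.0% of plus-strand siCTL ends of the siCTL class lay to the left (64.5 to 69.5%) and 27.0% of minus-strand ends did (24.7 to 29.4%). The siGPS2 library gave 64.9% and 38.5% at the same peaks. In the siGPS2 class the siGPS2 library gave 64.6% and 25.8% and the siCTL library 56.2% (52.9 to 59.5%) and 34.2%. Most deposited alignments spanned 48 bp. Counting every pair of a plus-strand and a minus-strand end within 1000 bp of a centre, the spacing of 40 to 59 bp was the commonest 20 bp class in both classes and both libraries. In the siCTL class it held 993 siCTL pairs, 3.22 times the mean of the classes from 200 to 399 bp, and 330 siGPS2 pairs, 1.71 times. In the siGPS2 class it held 771 siGPS2 pairs, 2.68 times, and 921 siCTL pairs, 2.36 times. The excess was thus larger in the library of the list, in which the centres were called. For uniquely placed peaks of the siCTL list only the excess at that spacing was 1.73 times in siCTL and 1.30 times in siGPS2. For those of the siGPS2 list only it was 1.84 times in siGPS2 and 1.49 times in siCTL. Uniquely placed peaks of both lists had 1.92 times in siCTL and 2.23 times in siGPS2, with 267 deposited peaks counted for 119 merged ones. For repeat-placed peaks of both lists it was 1.90 times in siCTL and 1.83 times in siGPS2. Those values rest on 3332159 siCTL and 2893282 siGPS2 pairs, to which the fullest peaks add most. They were counted over 1403 deposited peaks for 510 merged ones, so pairs in overlapping peaks counted more than once. The values of that class are therefore not a like comparison. Pairs from 1 peak are not independent, so these ratios carry no interval, and no test of their difference was made.

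The rule for the classes did not use what lay around the peaks, but whether the peak calling behind the lists did is not known here. The surroundings can also hold other peaks of the class. Another peak of the same class lay within 10 kb of 55 of the 345 and of 61 of the 242. Between 2000 and 10000 bp from the centre, the median share of reads of quality 30 or more was 23.0% for the siCTL class and 12.0% for the siGPS2 class. It was 52.7% for repeat-placed peaks of both lists and 92.2% and 93.6% for uniquely placed peaks of the siCTL and the siGPS2 list only. A share under 25% was found around 180 of 345 siCTL class peaks (52.2%, 46.9 to 57.4%), 159 of 242 siGPS2 class peaks (65.7%, 59.5 to 71.4%) and 172 of 510 shared ones (33.7%, 29.8 to 37.9%), so neither class interval overlapped that of the shared peaks. Surroundings of low mapping quality, at these distances, were thus found more often around single-list repeat-placed peaks than around shared ones. Read density in the surroundings, both libraries summed, was a median of 1.58 times the mean of the chromosomes for the siCTL class and 2.24 times for the siGPS2 class, against 1.33 times for the shared peaks. It was at least 2 times the mean around 128 of the 345 (37.1%, 32.2 to 42.3%) and 136 of the 242 (56.2%, 49.9 to 62.3%), and around 164 of the 510 (32.2%, 28.3 to 36.3%). Neighbouring peaks share surroundings, so the intervals treat as separate what partly is not.

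**Figure D3:**
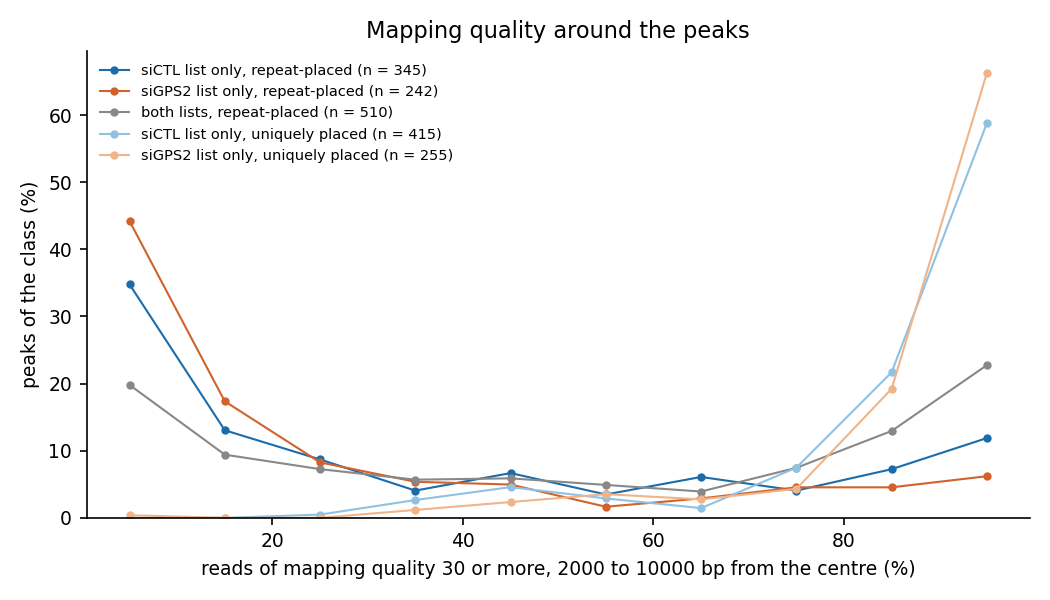
Share of peaks of each class (y axis, %) by the share of reads of mapping quality 30 or more between 2000 and 10000 bp from the centre (x axis, in steps of 10%). The 345 and 242 repeat-placed single-list peaks (dark blue and orange) crowd at the left, uniquely placed single-list peaks (light colours) at the right, and the 510 repeat-placed peaks of both lists (grey) are high at both ends.

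A smaller set lay in well-placed surroundings. Surroundings with at least 75% of reads of quality 30 or more were found around 75 siCTL class peaks (21.7%) and 31 siGPS2 class peaks (12.8%). These were sharper at the centre relative to their surroundings, which were also thinner. Median density there was 1.01 and 1.05 times the mean of the chromosomes, against 2.16 and 2.73 times for peaks in surroundings under 25%. Enrichment and the share of reads near the centre both depend on that background. The 75 had 8.12 times (7.36 to 8.95) the density of the surroundings at their centres in siCTL and 4.10 times (3.53 to 4.75) in siGPS2, and for the 31 the siGPS2 value was 7.69 times (6.45 to 9.13) and the siCTL value 3.64 times (2.95 to 4.46). The 180 and 159 peaks in surroundings under 25% had 3.24 times (3.06 to 3.44) and 3.29 times (3.09 to 3.49), each in the library of its list. A median of 52.9% and 50% of the reads in these 75 and 31 peaks lay within 150 bp of the centre, against 30.7% and 30.4% for those in poorly placed surroundings. Summed ratios were 0.829 (0.743 to 0.926) and 1.36 (1.15 to 1.61) for the 75 and the 31, and 0.972 (0.924 to 1.02) and 1.13 (1.07 to 1.18) for those in poorly placed surroundings. The intervals overlapped in each class, only barely in the siCTL class. Overlap does not show that the ratios are alike, and their difference was not tested. The 75 and the 31 had a median of 17 and 18 reads in all, and those in poorly placed surroundings 27 and 32.

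The peaks of both classes lay close together. With neighbours joined across gaps of up to 100 kb, the 587 fell into 268 groups, of which 201 were single peaks, and 386 peaks (65.8%) shared a group with another. There were 34 groups of 5 or more, which held 300 peaks (51.1%). Peaks of both classes stood in 54 of the 67 groups of 2 or more and in 32 of the 34 groups of 5 or more. The share that group size alone would give was not computed, so nothing is read from these counts. A repeat-placed peak of both lists was spanned by 27 of the 34. Within 100 kb of a siCTL class peak there was a siGPS2 class peak in 182 of 345 cases (52.8%, 47.5 to 58.0%), and of a siGPS2 class peak a siCTL class peak in 154 of 242 (63.6%, 57.4 to 69.4%). Another peak of the same class lay that near in 189 of the 345 (54.8%) and 148 of the 242 (61.2%). For uniquely placed peaks of the siCTL list only, a siCTL class peak lay that near in 29 of 415 (6.99%, 4.91 to 9.86%). For repeat-placed peaks of both lists it did so in 164 of 510 (32.2%, 28.2 to 36.3%). Of the peaks in surroundings under 25%, 165 of 180 and 149 of 159 belonged to a group, while none of the 75 and 3 of the 31 in well-placed surroundings did.

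The largest group, on chromosome 8 at 19852755 to 20456981, held 20 peaks, 11 of the siCTL class and 9 of the siGPS2 class, beside 9 repeat-placed peaks of both lists. Over its 604227 bp the density was 4.77 times the mean of the chromosomes and 21.0% of reads had a quality of 30 or more. Single peaks in it had ratios from 0.398 to 1.59, while the whole span, with 7324 siCTL and 5545 siGPS2 reads, had a ratio of 1.01 (0.971 to 1.04). On chromosome 14 at 3593330 to 4044422 there were 16 peaks, 10 and 6, with ratios from 0.547 to 2.92 around a span ratio of 0.961 (0.903 to 1.02). On chromosome 1 at 84861611 to 85226458 there were 14, 4 and 10, with ratios from 0.625 to 1.66 around 0.999 (0.944 to 1.06). In all 3 the span as a whole was not separated from 1 by its interval. The emptiest members held 13, 11 and 18 reads over both libraries, in that order, and the members were picked by opposite lists. Nothing is therefore read from the spread of the single ratios. Which genes or repeats these spans hold was not analysed here, since no mm8 annotation was used.

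**Figure D4:**
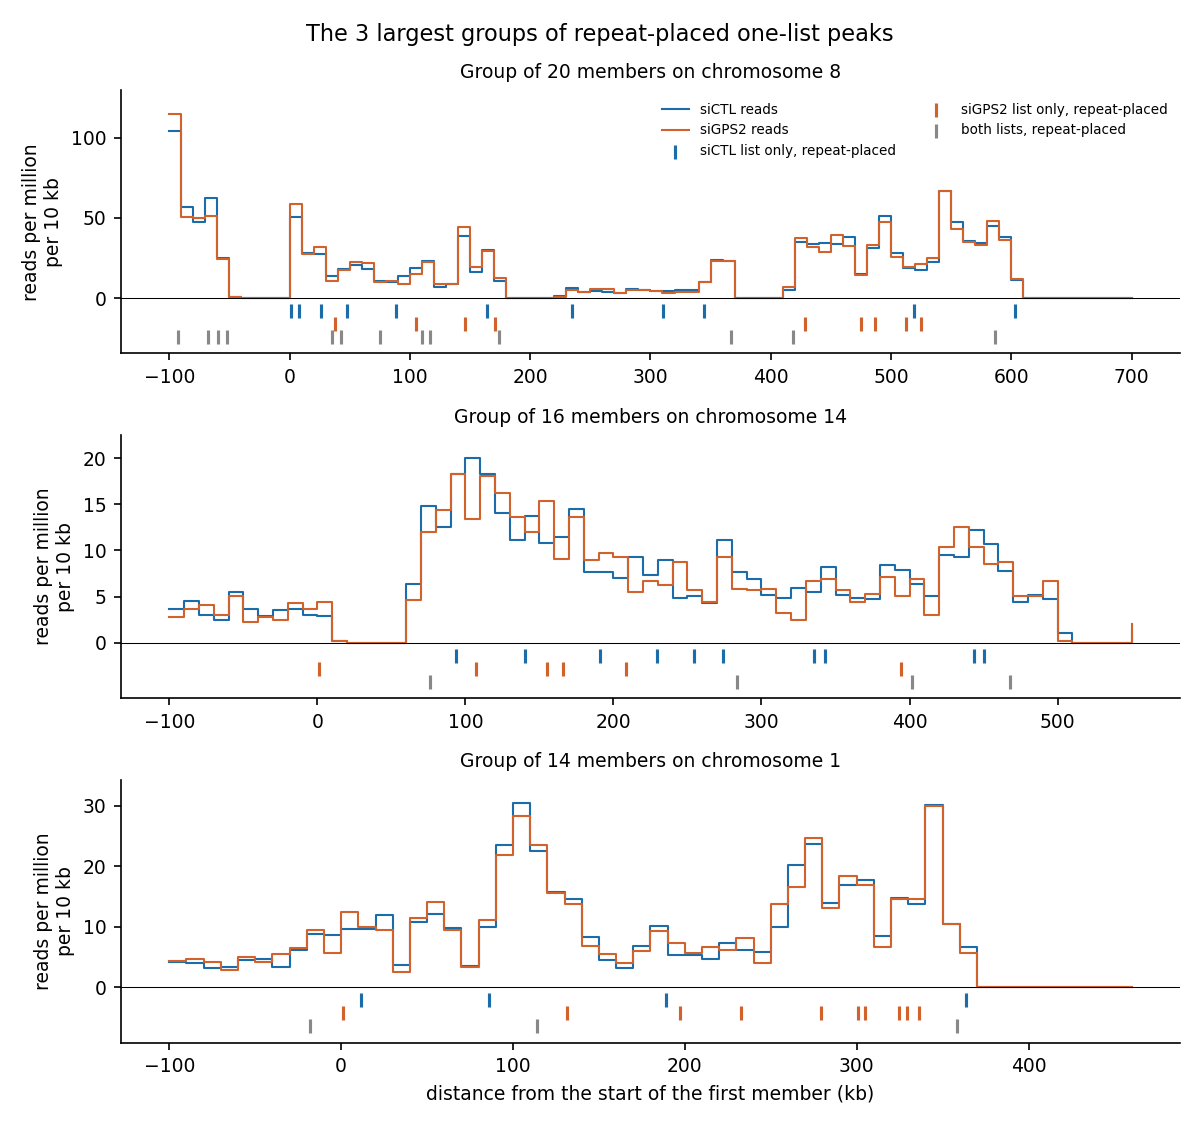
Reads in 10 kb bins, scaled to library depth (y axis), over the 3 largest groups, by distance from the start of the first member in kb (x axis), siCTL in blue and siGPS2 in orange, from 100 kb before to 100 kb after each group. Ticks under each map mark repeat-placed peaks of the siCTL list only (blue), the siGPS2 list only (orange) and both lists (grey). The library curves run close together across the spans of 20, 16 and 14 members, with empty bins in places, and each span holds ticks of both colours, although a stretch in the middle of the chromosome 8 span holds siCTL list ticks only.

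The densest of the 34 groups of 5 or more was a small one. On chromosome 6 at 47666151 to 47708705, 6 peaks and 3 of both lists stood at a median spacing of 4349.5 bp in a span 8.43 times as dense as the chromosomes, with 1.25% of reads of quality 30 or more and a span ratio of 1.03 (0.936 to 1.14). The peaks at 47672831 and 47677179 were of the siGPS2 list and those at 47681530 and 47692237 of the siCTL list. Their siCTL and siGPS2 reads were 83 and 63, 66 and 58, 68 and 64, and 59 and 55, in that order. The outer peaks, both of the siCTL list, were less full, with 43 against 25 reads at 47666151 (0.772, 0.452 to 1.29) and 23 against 11 at 47706706 (0.635, 0.279 to 1.36). The intervals of all 6 included 1.

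Among the 34 groups of 5 or more, span ratios ran from 0.874 to 1.29 with a median of 0.991, and 5 intervals excluded 1. Over all 268 groups, 3.36% had an interval below 1 and 1.87% one above it. Of the 268, 201 were single peaks, which held fewer reads than the larger groups and were picked by their list. Those shares are therefore not a like comparison for the 34. The 2 above 1 among the larger groups were on chromosome 8 at 126422414 to 126506584 and on chromosome 6 at 114476085 to 114603784. The first held 8 peaks, 3 of the siCTL class and 5 of the siGPS2 class, and 829 siCTL against 805 siGPS2 reads (1.29, 1.17 to 1.42). Outside all its merged peaks the ratio was 1.26 (1.11 to 1.42), so the difference ran through the span. Of its reads 2.08% had a quality of 30 or more, 14 in siCTL and 20 in siGPS2 (1.90, 0.911 to 4.06). The second held 7 peaks and 1038 against 889 reads (1.14, 1.04 to 1.24), and 1.14 (1.02 to 1.27) outside its peaks. The 3 below 1 were on chromosome 13 at 65366294 to 65758825 (0.914, 0.851 to 0.982), chromosome 2 at 177072896 to 177344119 (0.934, 0.877 to 0.995) and chromosome 2 at 175013080 to 175186254 (0.888, 0.801 to 0.984). The chromosome 2 span at 177072896 also stood below 1 in reads of quality 30 or more, 835 against 552 (0.878, 0.787 to 0.979).

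By chromosome, the siCTL class was most frequent on chromosome 14, with 54 of 345 peaks (15.7%, 95% Wilson interval 12.2 to 19.9%), where 4.04% of siCTL reads lay and where 18 of 242 siGPS2 class peaks did (7.44%, 4.76 to 11.4%). The siGPS2 class had the most on chromosome 2 (28, 11.6%) and chromosome X (27, 11.2%). All 72 peaks of chromosome 14, both classes summed, had a ratio of 0.998 (0.909 to 1.09), with an interval that includes 1. Chromosomes 9 and 10 had few of either class, 4 and 7 in all, at 5.10% and 5.32% of siCTL reads, and chromosome 18 had 1, of the siGPS2 class, at 3.16%. Chromosome 8 held 34 and 24, with a summed ratio of 1.15 (1.07 to 1.23), the only one of the 20 chromosomes with an interval above 1. Chromosome 3, with 133 siCTL and 74 siGPS2 reads in 12 peaks, was the only one with an interval below 1 (0.739, 0.548 to 0.989). Without chromosome 8, the summed ratio was 0.913 for the siCTL class and 1.14 for the siGPS2 class. Of the 587 peaks, 43 started within 1 Mb of the first read of their chromosome, 16 of them on chromosome X and 14 on chromosome 14. The same count was not made for other peaks or for the chromosomes as a whole, so neither an excess nor a lack is read from it. Peaks of 1 group lie close together and were counted as separate, so the intervals on these shares may be too narrow.

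**Figure D5:**
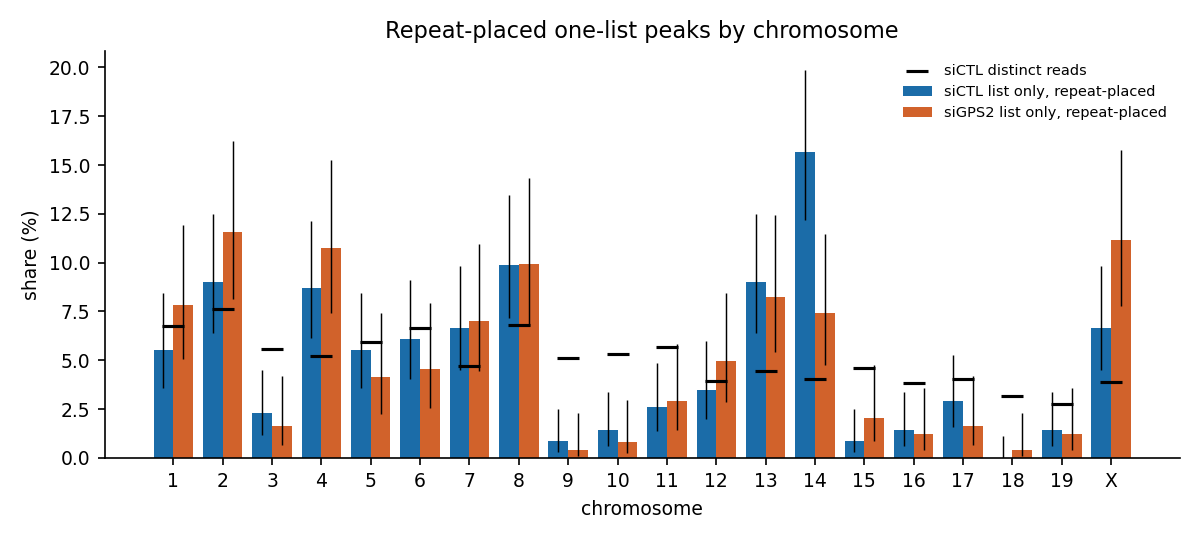
Share of the repeat-placed single-list peaks on each chromosome (y axis, %), with blue bars for the 345 of the siCTL list and orange bars for the 242 of the siGPS2 list, 95% Wilson intervals as lines and the share of siCTL distinct reads as black dashes. The blue bar of chromosome 14 is the highest, at 15.7%, beside 7.44% for the orange one.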

How the data were processed

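Reads and peaks came from KDM4A ChIP-seq of 1 siCTL and 1 siGPS2 library. The submitters' processing notes list Bowtie, HOMER and the build mm8 with no role, and tool versions are not given in the sources used here. The only value in the deposited reads is a mapping quality score from 0 to 42, not normalized. The deposited peak lists hold coordinates and no other value, 1 list per library, each peak 2000 bp wide, and starts were taken to count from 0. Lines cut short, 3 in siCTL and 6 in siGPS2, were left out.

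In each library 1 read per chromosome, 5 prime position and strand was kept, and 5 prime ends were counted in peaks and scaled to distinct reads. Ratios are siGPS2 over siCTL with exact conditional (Clopper-Pearson) 95% intervals, and shares carry Wilson intervals. Centres are those of the deposited peaks (for a merged peak, of the one standing earliest in its list). The criteria were tested on simulated data. Peaks named were, per class, the 5 with most reads, the 3 lowest and 3 highest ratios with at least 30 reads, the first 3 in the list, the 2 nearest the 50% limit on either side, and the 3 largest groups. Smaller groups, peaks by their extreme totals and further called peaks were chosen after their values were seen. The members, lists and criteria were chosen with earlier results of these data known. Depth, 6559860 and 4940261 distinct reads, limits the precision of single peaks. Python 3.11.15, numpy, pandas and scipy were used. Alternatives covered mapping quality, joining, depth, read filters, minimum reads, fold, windows and tiles.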

Additional observations from a re-analysis of the deposited data

Results flagged for a closer look

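Outside the chromosomes used above, on contigs without a place on a chromosome, 12 merged peaks met the same criteria of a single list and low mapping quality, 7 found in siCTL and 5 in siGPS2. They were singled out because they hold signal but belong to none of the classes described above: 233 siCTL and 180 siGPS2 distinct reads in sum, and 17 to 59 reads each over both libraries. Peaks on contigs do count among all merged peaks, whose median ratio and called shares were given as background.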

How the results depend on the processing

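No paired analysis was possible because each group had 1 library. Of 146 values recomputed under alternatives, 122 stayed within counting error, or within 1.5 times for counts. Some of the 122 could not change, such as centre enrichment in siGPS2 with siCTL thinned, so their number is no measure of stability. The direction turned in 2 of the 146: with reads of quality 30 or more alone, the siCTL class had a summed ratio of 1.08 and a median log2 ratio of 0.41. That median, and the 0.41 of the siGPS2 class, is the value which the read added to each library gives a peak without such reads. With reads within 150 bp of the centre, medians were −0.40 and 0.70 and summed ratios 0.680 and 1.59. No peak was called lower or higher there (0 in either class), but the minimum of 30 then applied to these reads alone. Most peaks fell short of it, with upper quartiles of 7 siCTL and 4 siGPS2 reads in the siCTL class. In the siGPS2 class they were 6 and 7, so nothing is read from the missing calls. With members limited to below 25%, there were 224 in the siCTL class, 2 called lower, and its centre enrichment was 3.59 in siCTL and 2.46 in siGPS2. With the siCTL library thinned, 2 of that class were lower. With a minimum of 10 reads 12 of the siCTL class were lower, and 5 of the siGPS2 class higher, while with 100 none was called (0). Most peaks held fewer than 100 reads, with upper quartiles of 32 in the siCTL class and 41 in the siGPS2 class. The share called over all merged peaks was not computed at either minimum, so nothing is read from these counts. With a centre of 250 bp on either side, enrichment was 2.93 in siCTL and 2.24 in siGPS2 for the siCTL class, and 1.91 and 2.72 for the siGPS2 class. The cause of the other changes was not tested. The alternatives that kept the read of highest quality, left out chromosome 8, used no added read, joined groups at 50 or 250 kb or changed the surroundings were chosen after seeing the data. Groups held 366 and 406 members at those gaps.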
